A study of Homo sapiens with 20 samples.

Results

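WM164 melanoma cells that had acquired resistance to dabrafenib were set directly against WM164 cells that overexpress NRAS Q61K. WM164 is a human melanoma line with mutant BRAF, and the comparison asks how far the H3K4me3 profiles of the drug-resistant and the oncogene-expressing cells differ. H3K4me3, a trimethylation of histone H3, was profiled by chromatin immunoprecipitation and sequencing, and the data were lists of peaks. The comparison used 4 of the 10 H3K4me3 peak lists of a series of 20 samples, of which the other 10 are inputs: 2 lists from resistant cells and 2 from NRAS Q61K cells. Resistant cells had been kept in 50 nM dabrafenib, renewed every 3 days, for more than 90 days. NRAS Q61K cells overexpressed the transgene and carry no drug treatment in the labels. All cells were the same line, grown in the same medium, and the same antibody was used for every list. Reference groups, also of 2 lists each, were parental cells (DMSO for 3 days), colonies (50 nM dabrafenib for 45 days) and cells overexpressing GFP. The labels do not say how the transgenes were delivered or driven, or whether the resistant cells were 1 clone. The labels state duplicates but not separate cultures, so the p-values below measure only the spread between these libraries, which may be technical.

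BRAF and NRAS act in the same growth pathway: RAS proteins switch on RAF kinases such as BRAF, and these pass the signal through MEK to ERK. Dabrafenib blocks mutant BRAF, and Q61K is a substitution that keeps NRAS in its active form, a known route around BRAF inhibition in melanoma. H3K4me3 is laid down around the starts of active genes, as narrow or broad stretches flanking the start site. It is low or absent at many, but not all, genes that are switched off. A list of peaks therefore shows mainly which starts are marked and over how many bases. No gene annotation of the build of the files was used here, so regions are named by cytogenetic band and position on GRCh37. For the same reason the gene lists and the lineage markers of melanoma were not used here, and the cell type on the labels was not checked against them.

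The NRAS Q61K lists held many more peaks than the resistant lists, and most of the surplus was short. On chromosomes 1 to 22 and X the resistant lists held 19401 and 19111 peaks (19256 ± 205, SD, n = 2), and the NRAS Q61K lists 40648 and 37649 (39149 ± 2121, SD, n = 2). Peaks covered 35.1 and 34.1 Mb in resistant cells and 48.5 and 44.6 Mb in NRAS Q61K cells. The median peak was 1593 and 1553 bp long in the resistant lists and 436 and 472 bp in the NRAS Q61K lists. Peaks under 300 bp made up 8.59% and 7.62% of the resistant lists and 38.0% and 36.6% of the NRAS Q61K lists. Neither pair overlapped the other in any of these values, but 2 lists against 2 cannot give an exact two-sided permutation p below 0.33. Among peaks with a −log10 q of 10 or more the gap was smaller, at 13739 and 13827 peaks against 18945 and 18734.

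Library properties differed between the pairs as well. The shortest peak, which the peak caller usually sets near the fragment length, was 255 and 256 bp in the resistant lists and 153 and 151 bp in the NRAS Q61K lists. It was 202 and 180 bp in parental, 282 and 284 bp in colony and 142 and 153 bp in GFP lists. The labels state a fixation of 10 minutes in 4% paraformaldehyde for parental, colony and resistant cells, and give none for the transgene cells. Read totals are not in the lists, and the background implied by each peak's fold and p was 19.1 and 19.3 reads per kb in resistant and 25.3 and 22.5 in NRAS Q61K lists. Fragment length, preparation and depth cannot be told apart from the cell state in a direct comparison. The values for the GFP cells, which share the low shortest-peak lengths of the NRAS Q61K cells, are therefore given beside the regions named.

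Merging the peaks of the 4 lists within 1000 bp gave 25537 regions, with a median of 1621 bp each. Of these, 12886 (50.5%) had a peak in all 4 lists. They held 97.8% and 98.2% of the bases under resistant peaks and 88.7% and 90.5% of the bases under NRAS Q61K peaks. Most of the marked sequence was thus common to both conditions. The share of bases in common, relative to the bases under either list (Jaccard index), was 0.839 for the resistant pair and 0.810 for the NRAS Q61K pair. It was 0.660 ± 0.0188 (SD) over the 4 pairs that cross the conditions, with a range from 0.638 to 0.680. The index of each cross pair was below that of either replicate pair. The difference was uneven: on average 93.1% of the bases under a resistant list lay under an NRAS Q61K list as well, against 69.4% the other way.

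A peak in both resistant lists and in neither NRAS Q61K list was found in 413 regions, which is 1.62% of all regions and 3.08% of the 13407 marked in both resistant lists. These are called resistant-only below. The reverse pattern, called NRAS Q61K-only, was found in 5799 regions, 22.7% of all and 30.1% of the 19283 marked in both NRAS Q61K lists. Both terms refer to these 4 lists alone. A further 5461 regions had a peak in 1 NRAS Q61K list and no resistant list, 3777 of them in the first replicate (median 197 bp under peaks) and 1684 in the second (186 bp). Without the second NRAS Q61K replicate, regions seen in the first list alone count too, and the number of NRAS Q61K-only regions was 9576. With all lists trimmed to the same number of strongest peaks (19111) the counts were 768 resistant-only and 1588 NRAS Q61K-only regions, and with only peaks of −log10 q 10 or more they were 272 and 2392.

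Regions absent from the other condition were mostly the weak and narrow ones. Regions marked in both NRAS Q61K lists were divided into quartiles by the mean −log10 q of their strongest peak. In the weakest quartile 4166 of 4821 regions (86.4%) had no resistant peak, in the next 1571 of 4811 (32.7%), in the third 48 of 4828 (0.994%) and in the strongest 14 of 4823 (0.290%). The same division of the regions marked in both resistant lists gave 369 of 3349 (11.0%), 40 regions (1.19%), and 2 regions in each of the upper quartiles. Dividing by bases under peaks gave 86.6%, 30.6%, 1.78% and 1.26% for NRAS Q61K and 10.3%, 1.43%, 0.358% and 0.268% for resistant cells. Among NRAS Q61K-only regions the median was 439.5 bp under peaks, and 799 (13.8%) were shorter in both lists than the shortest peak of any resistant list. Resistant-only regions had a median of 773 bp. A −log10 q of 10 or more in both lists of the pair was reached by 1442 NRAS Q61K-only regions (24.9%) and 138 resistant-only regions (33.4%), here called strong.

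**Figure D1:**
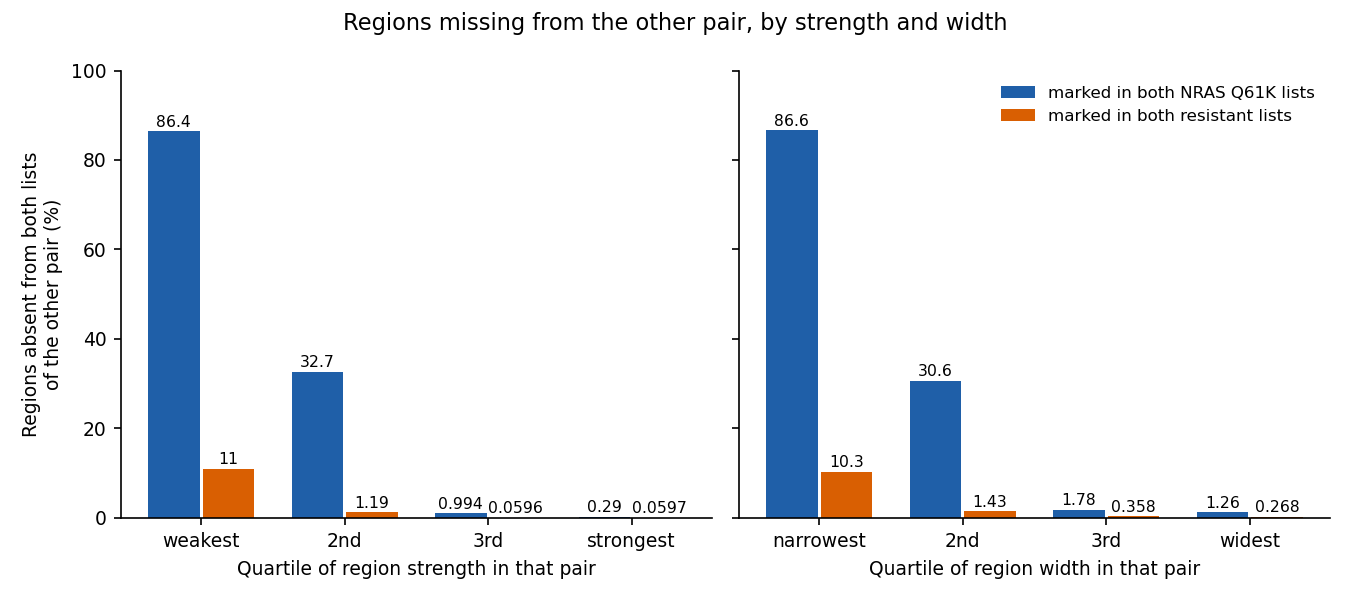
Share of regions marked in both lists of one condition that had no peak in either list of the other (y axis, percent), by quartile of peak strength (mean −log10 q of the strongest peak) and of width (bases under peaks). For NRAS Q61K the share runs from 86.4% in the weakest quartile to 0.290% in the strongest, and for resistant cells from 11.0% to 0.0597%.

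Resistant-only regions were mostly unmarked elsewhere: 387 of 413 (93.7%) had no parental peak, 391 no GFP peak and 381 no colony peak, and 346 (83.8%) had none in any of the other 8 lists. Over all 25537 regions, 25.8% had no parental, 21.7% no GFP and 41.4% no colony peak, and 17.7% had none in the 6 reference lists. Both colony lists marked 22 of them. Among the 138 strong ones, 109 had no peak in the other 8 lists and 11 were marked in both colony lists. NRAS Q61K-only regions were marked in the controls no more often than regions in general. Both GFP lists marked 3884 (67.0%) and both parental lists 3109 (53.6%), against 69.4% and 65.2% of all 25537 regions. Of the 1442 strong ones, both GFP lists marked 1372 (95.1%), both parental lists 1276 (88.5%) and all 4 control lists 1248 (86.5%). Among regions with a peak in all 4 resistant and NRAS Q61K lists these shares were 98.4%, 98.5% and 97.8%. Only 17 strong regions (1.18%) had no peak in any control list. The strong NRAS Q61K-only regions were thus mostly regions that the control lists carry and the resistant lists lack. Both colony lists marked 531 of the strong regions (36.8%) and neither marked 683 (47.4%), against 53.5% and 41.4% of all regions. Among regions with a peak in all 4 resistant and NRAS Q61K lists these colony shares were 95.3% and 3.03%.

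**Figure D2:**
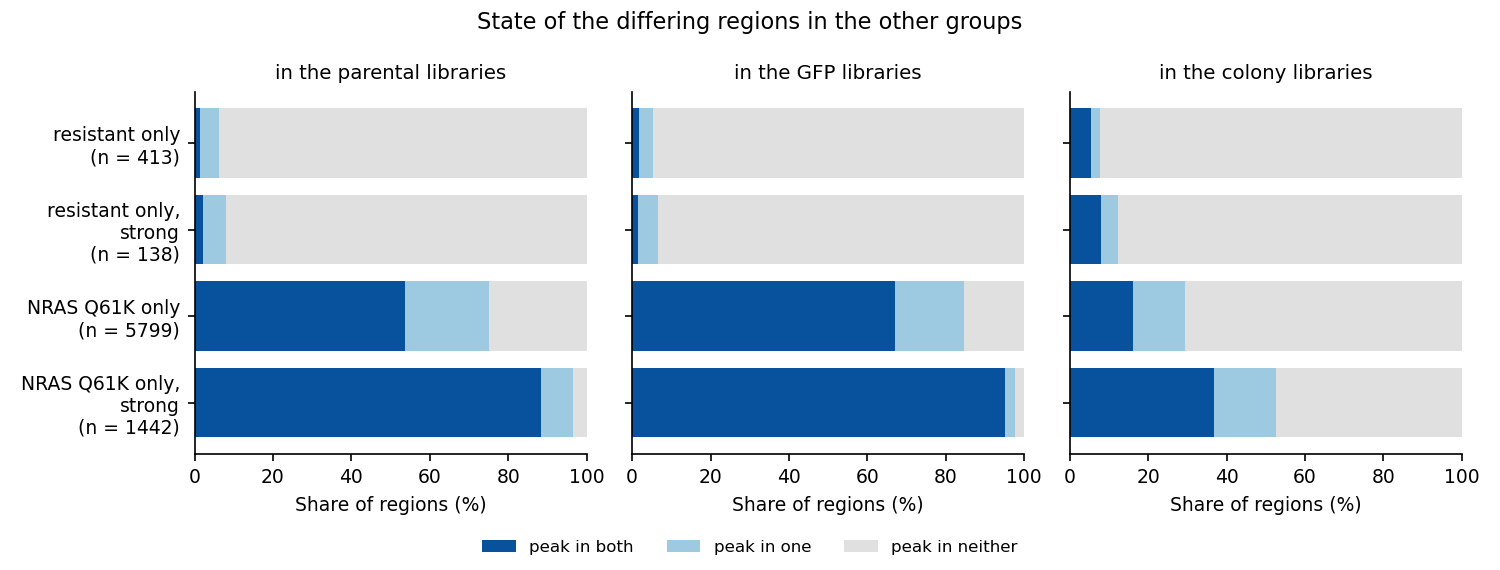
Share of regions (x axis, percent) in the resistant-only and NRAS Q61K-only sets, all and strong, with a peak in both, 1 or neither list of the parental, colony and GFP cells. The strong NRAS Q61K-only regions were marked in both GFP lists in 95.1% of cases, whereas 93.7% of all resistant-only regions had no parental peak.

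The strongest resistant-only region lay at 15q26.3 (chromosome 15, 101418376 to 101425549). Its resistant peaks covered 6934 and 6014 bp and reached a mean −log10 q of 81.9, and all 8 other lists were at 0. A region of similar width at 14q21.1 (chromosome 14, 42071272 to 42079827) had 6575 and 6919 bp in resistant cells and also 0 elsewhere. The same was true of 5 regions with fewer bases. At 19q13.2 (chromosome 19, 39997032 to 39999135) the resistant lists had 1445 and 2104 bp. At 5p13.2 (chromosome 5, 35617266 to 35619276) they had 1513 and 1740 bp. At 4q21.21 (chromosome 4, 81104606 to 81106609) they had 2004 and 1755 bp. At 12q21.31 (chromosome 12, 81328669 to 81333505), named for its width, they had 4263 and 4631 bp. At Xq25 (chromosome X, 123361648 to 123365662), also named for its width, they had 3982 and 3828 bp. In these 7 regions the mark was thus seen in resistant lists and in no other list of the series.

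Other resistant-only regions carried the mark in a reference group too. At 1p36.32 (chromosome 1, 4035383 to 4039549) the colonies had 1952 and 2763 bp, the resistant cells 3629 and 3443 bp and the GFP cells 218 and 172 bp, with 0 in parental and NRAS Q61K lists. Both colony lists were marked there and lay below both resistant lists. At 11q12.1 (chromosome 11, 55939882 to 55943323) the resistant lists had 3398 and 3316 bp, the parental 854 and 668 bp, the GFP 156 and 301 bp, and the colony and NRAS Q61K lists 0. At 2q24.1 (chromosome 2, 157656127 to 157660296) the resistant lists had 4041 and 4118 bp, beside 319 bp in 1 parental and 178 bp in 1 GFP list. These 10 regions were chosen for their resistant values, so the width differences in them are a description.

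The strongest NRAS Q61K-only region lay at 20q13.32 (chromosome 20, 57197199 to 57201991), with 4170 and 3531 bp and a mean −log10 q of 130. Its parental lists had 1413 and 1105 bp, its GFP lists 2230 and 1907 bp, and its colony and resistant lists 0. Among the 8 strongest regions, this one had the widest gap between the means of the NRAS Q61K and GFP lists. At 11q13.3 (chromosome 11, 70086135 to 70091360) the NRAS Q61K lists had 4801 and 4649 bp, the GFP lists 4340 and 4385 bp, the parental lists 5137 and 4559 bp and the colony lists 3621 and 4071 bp. At 7q22.2 (chromosome 7, 104434253 to 104446210) the NRAS Q61K lists had 10089 and 8639 bp, the GFP lists 9159 and 8926 bp, the parental lists 8702 and 7873 bp and the colony lists 9860 and 9716 bp. Both regions were broad in every list but the resistant ones, where no base lay under a peak.

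The same held, with 4 control lists marked and resistant lists at 0, for 15q25.1 (chromosome 15, 80601127 to 80603898) and 14q22.3 (chromosome 14, 56259970 to 56263811). NRAS Q61K lists had 2681 and 2587 bp at the former and 3818 and 3489 bp at the latter. GFP lists had 2099 and 2114 bp and 3346 and 3142 bp, and colony lists kept 1474 and 1588 bp and 2024 and 1673 bp. At 5q11.2 (chromosome 5, 56593601 to 56598789) the colony lists were low, with 707 and 847 bp against 4915 and 4875 bp in NRAS Q61K and 4973 and 4741 bp in GFP cells. A pair of strong regions lay at 20q13.31. The first (chromosome 20, 55353813 to 55359620) had 5366 and 4735 bp in NRAS Q61K, 4163 and 3991 bp in GFP and 376 and 0 bp in colony lists. The second (chromosome 20, 56170802 to 56177827) had 5417 and 4750 bp in NRAS Q61K, 4143 and 3923 bp in GFP and 3261 and 3860 bp in colony lists. With 20q13.32, 3 of the 8 strongest NRAS Q61K-only regions lay in these neighbouring bands. Of all 21 regions in 20q13.31 and 26 in 20q13.32, 3 and 2 were strong NRAS Q61K-only regions, against 1442 of 25537 in the genome. The bands were picked through the 3 strongest regions, which these counts include, so the counts are a description. In the bands on either side, 20q13.2 and 20q13.33, strong NRAS Q61K-only regions were 7 of 44 and 4 of 88.

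**Figure D3:**
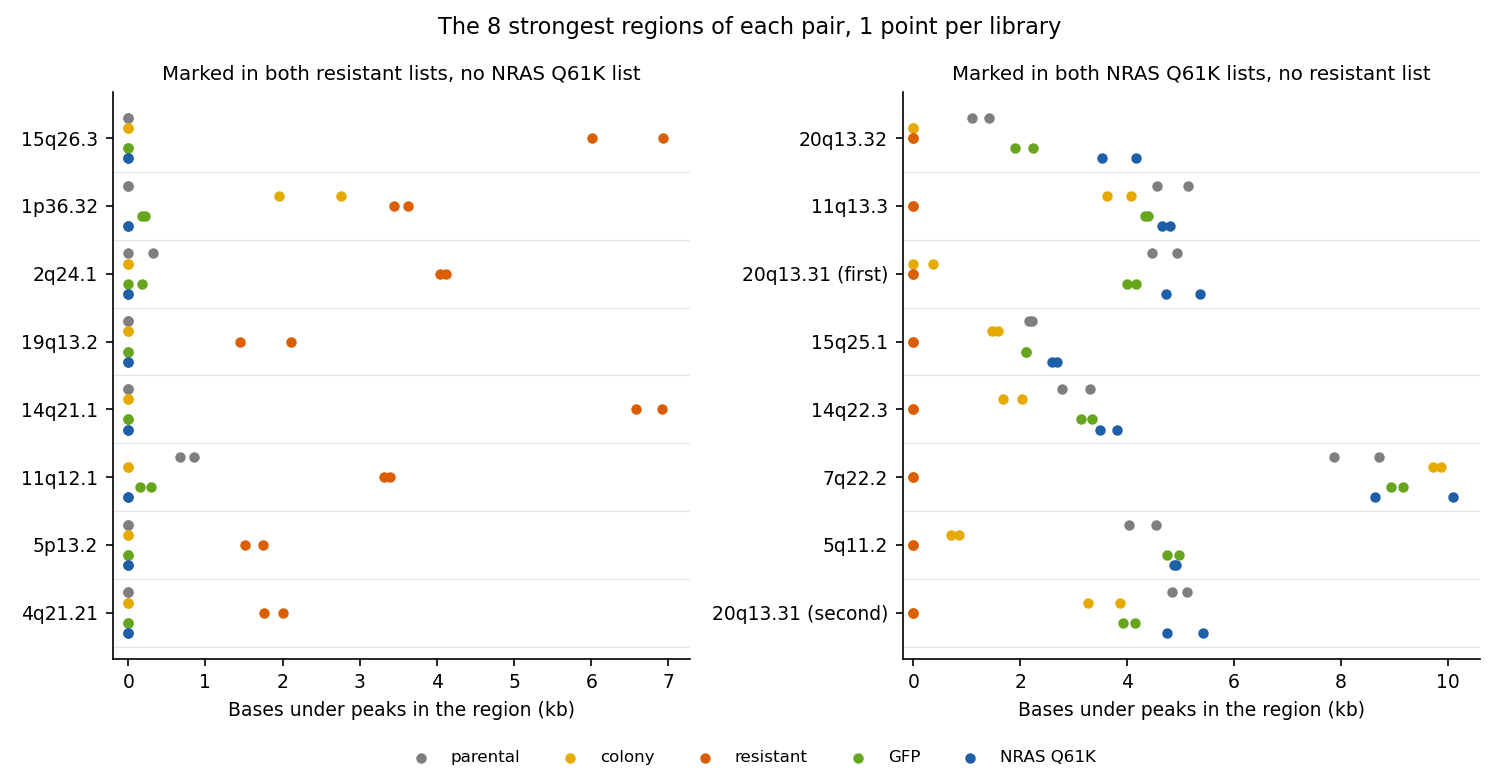
Bases under peaks (x axis, kb) in each of the 10 libraries, 1 point per library, for the 8 strongest resistant-only regions (left) and the 8 strongest NRAS Q61K-only regions (right), labelled by band. On the left most points of the other groups sit at 0, whereas on the right the parental and GFP points lie well above 0 and the resistant points are at 0.

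The widest NRAS Q61K-only regions gave the same picture with 1 exception. At 8p12 (chromosome 8, 29601211 to 29612888) the NRAS Q61K lists had 10243 and 9198 bp, the GFP lists 7882 and 7572 bp, the parental lists 8234 and 7544 bp and the colony lists 3289 and 4197 bp. At 1q42.12 (chromosome 1, 224912469 to 224921724) they had 8181 and 7518 bp, 7812 and 7933 bp, 6833 and 6535 bp, and 1087 and 2997 bp, in the same order. The exception was 6q21 (chromosome 6, 106964836 to 106973423), where NRAS Q61K lists had 8059 and 7480 bp and GFP lists 6656 and 5982 bp, but parental lists only 1234 and 1461 bp and colony lists 0. There both transgene groups stood far above the parental cells. A region at 2p11.2 (chromosome 2, 90375198 to 90394549) had 8049 and 9361 bp in NRAS Q61K, 10218 and 12641 bp in GFP and 10781 and 10249 bp in parental lists, and lies near the centromere, where copies of repeats can share reads.

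The width of the mark was then tested over the 19860 regions with a peak in at least 2 of the 4 lists. Bases under peaks were compared as log2(bases + 200) with limma, with the median of each library over the regions common to all 4 lists subtracted. This removed a shift of -0.27 (resistant minus NRAS Q61K). Relative to it, 2185 regions (11.0%) were wider and 7570 (38.1%) narrower in resistant cells at a Benjamini-Hochberg adjusted p under 0.05. Without centring the split was 747 wider and 10972 narrower. Regions marked in 1 condition only had to differ and make up much of the narrower set. Among the 12886 regions marked in all 4 lists, 1696 were wider and 1714 narrower, with a median difference of 0.02 over all of them. On the scale of bases, without centring, both NRAS Q61K lists were wider than both resistant lists in 9078 of these regions (70.4%) and the reverse held in 873 (6.77%).

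**Figure D4:**
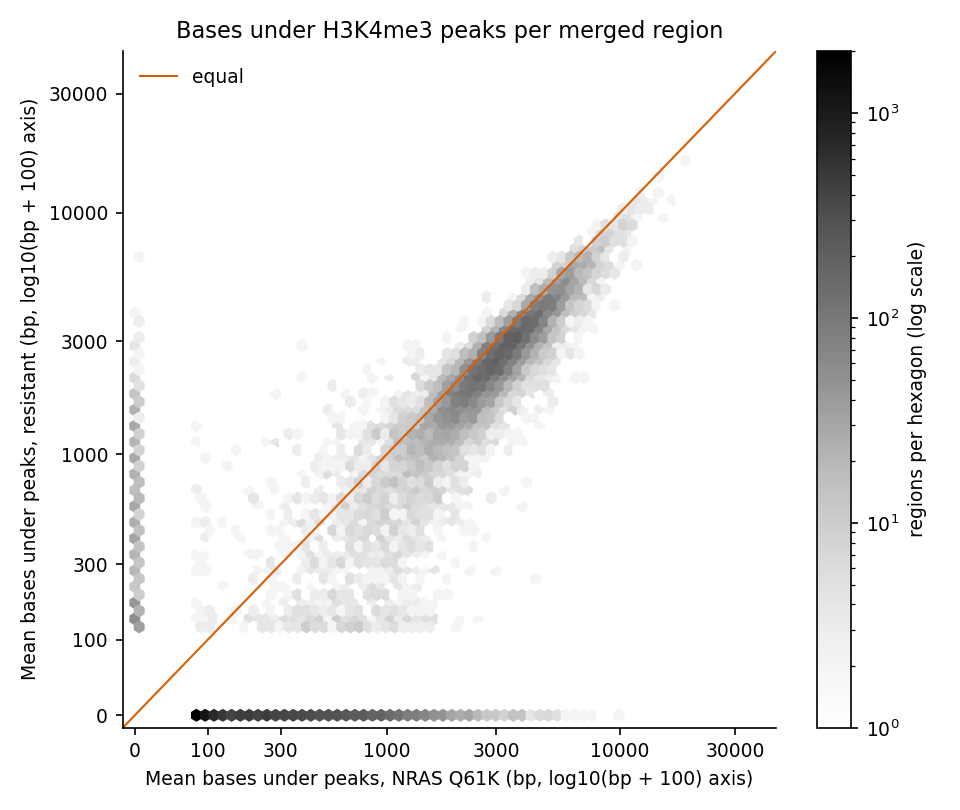
Mean bases under peaks per region in NRAS Q61K (x axis) and resistant cells (y axis), both on a log10(bp + 100) axis, over the 25537 regions, with darker hexagons holding more regions and the line marking equal values. Most regions with a peak in both conditions lie along or just below the line, and the regions with no resistant peak form the dense row along the bottom.

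Of the common regions, the largest rise was at 4q21.21 (chromosome 4, 78977590 to 78980935). Resistant lists had 3289 and 3284 bp there and NRAS Q61K lists 194 and 266 bp, a log2 difference of 3.30 (SE 0.17, limma adjusted p = 6.43e-04, n = 2 and 2). GFP lists had 0 there, as they did at 7q34, 8p21.2 and 5q22.2. At 19q13.12 (chromosome 19, 35738338 to 35741349) the values were 2895 and 3012 bp against 306 and 285 bp, with 166 and 153 bp in GFP cells. At 7q34 (chromosome 7, 141810880 to 141813479) they were 2291 and 2372 bp against 247 and 233 bp. At 8p21.2 (chromosome 8, 26369844 to 26372667) they were 2824 and 2477 bp against 323 and 282 bp, and colonies, at 1694 and 1471 bp, were above the parental 921 and 202 bp. At 5q22.2 (chromosome 5, 111753585 to 111756855) they were 2798 and 2885 bp against 649 and 151 bp, with 1097 and 1321 bp in colonies. The log2 differences were 2.94, 2.80, 2.78 and 2.75. An adjusted p under 0.05 in this fit was part of the rule that chose these regions, so their p-values are a description. In each of the 5 regions the resistant lists had the mark over a few kb, where NRAS Q61K lists had only short peaks.

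The largest falls were broad regions reduced to a remnant in resistant cells. At 9q21.11 (chromosome 9, 69877665 to 69883213) resistant lists had 271 and 316 bp and NRAS Q61K lists 5331 and 5272 bp, a log2 difference of -3.21 (SE 0.12, limma adjusted p = 6.43e-04, n = 2 and 2). Colonies had 0 there, and parental (5549 and 5533 bp) and GFP cells (5549 and 5549 bp) had the mark over the full region. At 18p11.31 (chromosome 18, 3281696 to 3286477) resistant lists had 255 and 256 bp, the length of their shortest peaks, against 4591 and 3940 bp in NRAS Q61K and 4244 and 4524 bp in GFP lists. At 1p31.3 (chromosome 1, 66796261 to 66802746) they had 583 and 513 bp against 6098 and 5994 bp, with 5802 and 5374 bp in GFP cells and 0 in colonies. At 12p13.1 (chromosome 12, 13348952 to 13355794) they had 514 and 613 bp against 5894 and 6063 bp, with 4024 and 3893 bp in GFP cells, and here colonies (3889 and 3955 bp) were close to parental cells (3393 and 3409 bp). At Xq22.3 (chromosome X, 106957304 to 106965494) they had 1023 and 768 bp against 7954 and 7558 bp, with 6687 and 5909 bp in GFP cells. The log2 differences of the last 4 were -3.02, -2.79, -2.75 and -2.60. These regions were chosen by the same rule, so here too the p-values are a description.

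To take each condition against its own control, the change from parental to resistant cells was compared with the change from GFP to NRAS Q61K cells in 1 limma model of 8 libraries. This contrast does not remove library properties that differ between a condition and its own control. Shortest peaks were 255 and 256 bp in resistant lists but 202 and 180 bp in parental lists. They were 153 and 151 bp in NRAS Q61K lists and 142 and 153 bp in GFP lists. The difference of changes was higher in resistant cells in 1212 of the 19860 regions (6.10%) and lower in 4849 (24.4%). Without the first GFP replicate the former count was 801. NRAS Q61K-only regions, at 0 in both resistant lists, made up 3444 of the lower ones, and resistant-only regions 405 of the higher ones. Lists of a pair that are both at 0 show no spread, which can make the estimated spread too small and raise these counts. When only the 12603 regions with a peak in every list of the fit were used, 504 were higher and 1094 lower. Of the 4849 lower regions 4615 (95.2%) were among the 7570 narrower ones of the direct comparison, and of the 1212 higher regions 1081 (89.2%) were among the 2185 wider ones. The fits share the 4 resistant and NRAS Q61K lists, so the overlap is not independent. Of the 10 common regions named above, all 5 falls passed (limma adjusted p under 0.05), from -3.28 at 9q21.11 to -2.44 at Xq22.3. Among the rises, 4q21.21 (2.71), 19q13.12 (3.71) and 7q34 (2.05, limma adjusted p = 0.0247) passed. The call at 7q34 was lost without either resistant, GFP or NRAS Q61K replicate, with adjusted p from 0.0536 to 0.0807. At 8p21.2 (0.95, limma adjusted p = 0.261) and 5q22.2 (1.84, limma adjusted p = 0.119) the difference of changes did not pass, but without the first parental replicate both did (1.64 and 2.62).

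Most gains over the own control had no peak in the other condition. Both resistant lists and neither parental list had a peak in 522 of the 25537 regions (2.04%). Of these, 387 (74.1%) had no NRAS Q61K peak, against 3.08% of all regions marked in both resistant lists. Both NRAS Q61K lists and neither GFP list had a peak in 1059 (4.15%). Of these, 894 (84.4%) had no resistant peak, against 30.1% of all regions marked in both NRAS Q61K lists. Gains were chosen for lacking a control peak. Of the regions marked in all 4 resistant and NRAS Q61K lists, 98.5% were marked in both parental and 98.4% in both GFP lists. The shares over all marked regions are therefore no like comparison for the gains. A gain in both was found in 44 regions, 8.43% of the resistant gains and 4.15% of the NRAS Q61K gains, against 4.15% and 2.04% of all regions. Of all regions, 65.2% were marked in both parental and 69.4% in both GFP lists. They could not be resistant or NRAS Q61K gains, respectively. The shares of all regions therefore do not show whether gains tended to coincide. A few regions, chosen after their values were seen, are given as examples of gains in both and in 1 condition. At 16q23.1 (chromosome 16, 77822044 to 77824987) resistant lists had 1310 and 1471 bp and NRAS Q61K lists 2455 and 2494 bp, with no parental or GFP peak. At 9q22.32 (chromosome 9, 99019249 to 99020955) the values were 1644 and 1480 bp and 545 and 375 bp, again with no parental or GFP peak. At 6q23.3 (chromosome 6, 138014327 to 138016453) only NRAS Q61K lists, with 2045 and 1861 bp, were marked among these 8. The same was true at 1p13.3 (chromosome 1, 111108573 to 111110970), with 2285 and 1858 bp.

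Another of the NRAS Q61K-only regions without a control peak lay in 1p13.2, the band that holds NRAS (chromosome 1, 115251183 to 115252424). The first NRAS Q61K list had a peak of 260 bp there (115252155 to 115252414, −log10 q 11.0) and the second had peaks of 317 bp (115252108 to 115252424, −log10 q 17.3) and 165 bp (115251183 to 115251347, −log10 q 10.2). Both lists also had a short peak at the near end of the next region, of 340 bp (115256345 to 115256684) and 344 bp (115256348 to 115256691). No resistant, parental or GFP list had a peak at either place, and 1 colony list had a 564 bp peak overlapping the latter. The main peak of that next region was present in all 10 lists. Into which gene or exon the short peaks fall was not determined. Reads from the NRAS transgene and from the gene itself cannot be told apart in these lists, so the short peaks need not be histone marks at this place.

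By chromosome, resistant-only regions made up between 0.829% (chromosome 8) and 3.57% (chromosome 13) of the regions of a chromosome. NRAS Q61K-only regions made up 20.1% of the regions marked in both NRAS Q61K lists on chromosomes 11 and X and 39.1% on chromosome 8. Of 432 regions touching centromeric or other heterochromatic bands, 141 were NRAS Q61K-only (32.6%, against 22.5% elsewhere) and 1 was resistant-only. That one lay at 22q11.1 (chromosome 22, 17601405 to 17603062) and had 1394 and 1658 bp in resistant cells.

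Widths were also summed up per chromosome arm over the 12183 regions with a peak in all 10 lists, each library taken relative to its own median. Of 41 arms with at least 50 regions, both resistant lists lay below both NRAS Q61K lists in 14 and above them in 14, and the pairs overlapped in 13. In 18 of these arms, 9 low and 9 high, the resistant lists lay outside the range of all 8 other lists. The lowest was 19p (363 regions), with log2 medians of -0.33 and -0.37 in resistant lists, -0.02 and -0.08 in NRAS Q61K lists and -0.17 to -0.02 over all 8 other lists. Next was 18p (51 regions), with -0.14 and -0.23 in resistant lists and no other list below -0.01. The 3 arms with the largest positive difference between resistant and NRAS Q61K lists were 11q (422 regions; 0.11 and 0.13, others at most -0.04), 21q (116 regions; 0.15 and 0.13, others at most 0.06) and 13q (219 regions; 0.18 and 0.20, others at most 0.02). NRAS Q61K lists lay outside the range of the other 8 in 3 arms. Such separation was not particular to resistant cells, since both colony lists lay outside the range of the other 8 in several arms. Examples were 17p (0.23 and 0.19, others at most 0.16), 20p (0.12 and 0.13, others at most 0.07) and 16q (-0.14 and -0.15, others at least -0.06). The difference between resistant and NRAS Q61K lists kept its sign at 19p, 18p, 11q, 21q and 13q in both stricter peak sets. These held only peaks of −log10 q 10 or more, or only peaks of at least 300 bp. Copy number was not measured here, and its part in the arm medians was not tested.

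**Figure D5:**
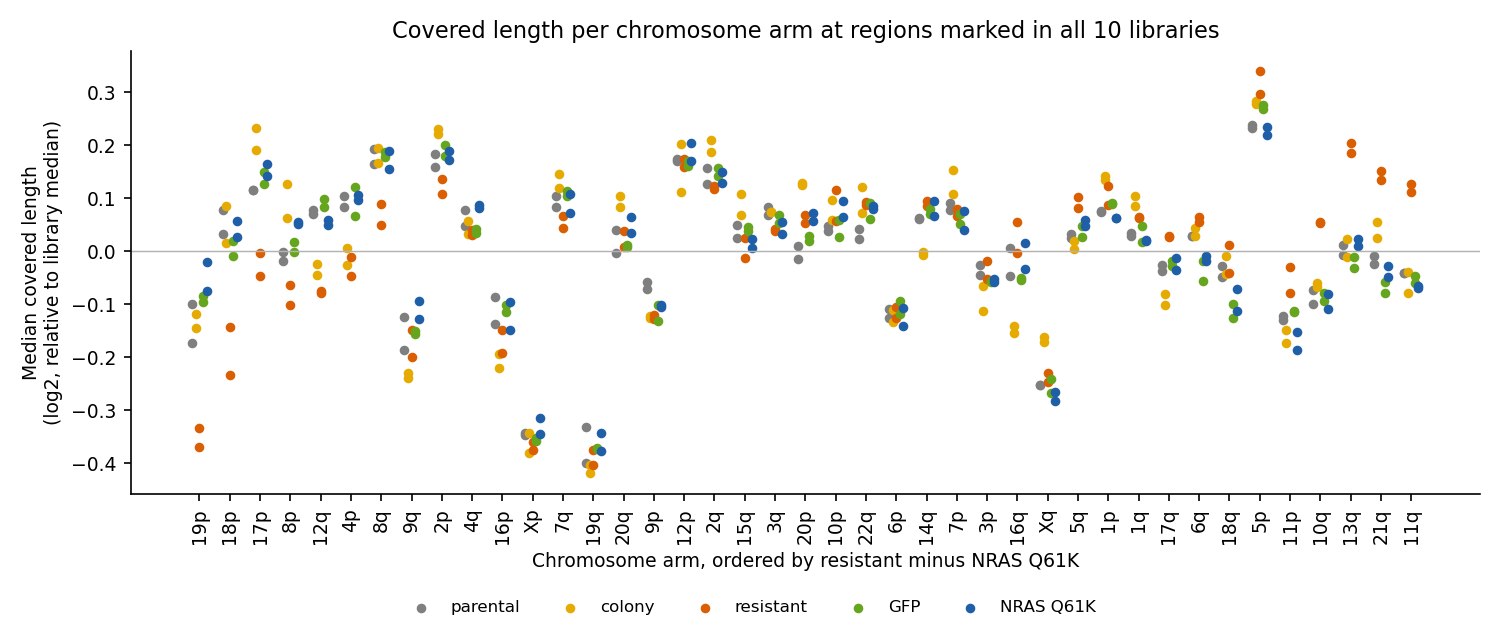
Median log2 covered length per chromosome arm, relative to the library's median (y axis), over regions marked in all 10 libraries, with 1 point per library and arms ordered by resistant minus NRAS Q61K. The resistant points stand below all others at 19p and 18p and above all others at 13q, 21q and 11q.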

How the data were processed

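Per the submitters' processing notes, BWA, SAMtools, MACS2 2.1.2 and deepTools 2.5.4 were used, on GRCh37 (hg19); no settings are named there. The deposited lists give per peak its position, a score (10 times the −log10 q), the fold enrichment (a ratio) and the −log10 p and −log10 q values of the authors' caller, per library. These values were used only to rank, filter and describe peaks.

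Groups came from the sample titles. Of the 116963 peaks of the 4 lists, 154 outside chromosomes 1 to 22 and X were left out, and the others were merged within 1000 bp. Bases under peaks per region were tested as log2(bases + 200) in limma 3.58.1 (R 4.3.3, trended eBayes, Benjamini-Hochberg adjustment over all regions tested), centred per library, for regions marked in at least 2 lists. Regions named were the 8 with the highest mean −log10 q and the 5 with the most bases in each set. The 5 largest rises and falls with adjusted p under 0.05 among common regions were named too. All lay outside centromeric, gvar and stalk bands (circlize 0.4.16). The implied background was solved from Poisson p and fold and is its 1st percentile per shortest peak length. Scripts were tested on simulated data. Members, region rules and lists were chosen with earlier results of these data known. Gene lists and markers were not used here.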

Additional observations from a re-analysis of the deposited data

How the results depend on the processing

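Counts depended on how weak peaks were treated. Against 413 resistant-only and 5799 NRAS Q61K-only regions, keeping peaks of −log10 q 10 or more gave 272 and 2392, lists of equal length gave 768 and 1588, peaks of at least 300 bp gave 3088 NRAS Q61K-only regions, and merging only overlapping peaks gave 9340. Leaving out 1 library gave 432 to 561 and 6010 to 9576. Regions wider and narrower in resistant cells were 2185 and 7570. They were 1164 and 3282 at −log10 q 10, 747 wider without centring, and narrower in 2766 with equal lists, 4435 at 300 bp and 1756 when only regions in every list were fitted. Without 1 library they were 2051 to 2407 and 7389 to 7903. The difference of changes was higher in 1212 and lower in 4849 regions. It was higher in 682 (−log10 q 10), 595 (no centring) and 504 (regions in every list), and lower in 2117, 1947 (equal lists), 3222 (300 bp) and 1094 (regions in every list). Without 1 library the ranges were 801 to 1121, the lowest without the first GFP replicate, and 3824 to 4702. At −log10 q 10 the lists averaged 13783 resistant and 18840 NRAS Q61K peaks over 32.2 and 40.8 Mb. At 300 bp they averaged 17694 and 24545 peaks, with 43.5 Mb in NRAS Q61K. These list, state and arm alternatives were chosen after seeing the data.

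The replicate block gave 2128 wider and 7792 narrower regions, and 1177 and 4727 for the difference of changes. Same-numbered libraries share only a number in the labels, and their deviations correlated at 0.07 over 12886 regions. The 32 regions named by the rule were chosen for large differences or strong peaks, so their stability says little about other regions. Resistant-only and NRAS Q61K-only regions do not enter the fit of regions in every list. In all 490 remaining refits of the direct comparison the named regions kept direction and call. For the difference of changes 564 of 581 did, 9 lost the call (7 of them at 7q34, 1 at 4q21.21 with a pseudocount of 50 and 1 at 6q21 at −log10 q 10) and 7 gained it, and 8p21.2 reversed to -0.16 with a pseudocount of 50. The causes were not tested. The lists hold no reads, so depth limits weak peaks in a way that cannot be measured here.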

Other observations

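Regions in heterochromatic bands, which the naming rule leaves out, were wide in NRAS Q61K lists and at 0 in resistant lists at several places chosen after their values were seen. NRAS Q61K lists averaged 9582 bp at 2p11.1 (chromosome 2, 91595144 to 91616034), 5141 bp at 16p11.1 (chromosome 16, 34709909 to 34715344) and 3265 bp at 21p11.1 (chromosome 21, 11097377 to 11101095). The reference groups were wide there too, with means of 11825 (parental), 12387 (GFP) and 5027 bp (colony) at 2p11.1, 5370, 5034 and 5185 bp at 16p11.1, and 2700, 3058 and 3608 bp at 21p11.1. Copies of repeats share reads in such bands. Peaks outside chromosomes 1 to 22 and X, which entered no comparison, numbered 5.5 ± 0.707 in resistant, 13 ± 0 in colony, 76 ± 4.24 in parental, 71.5 ± 2.12 in NRAS Q61K and 128.5 ± 50.2 in GFP lists (mean ± SD, n = 2 each).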
